A study of Mus musculus with 4 samples.

Results

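MHC-II-high C1q macrophages are tissue macrophages that hold much RNA for the 3 chains of complement C1q together with RNA of the major histocompatibility complex (MHC) class II genes. They were taken here cell by cell from CD45+ CD11b+ cells of mouse ovary, by limits on counts of unique molecular identifiers (UMIs, each standing for 1 captured RNA molecule). A cell belonged to them if C1qa, C1qb and C1qc summed to at least 20 UMIs, Ccr2 had at most 1 UMI, Fcgr4 had under 8 UMIs and Mki67 plus Top2a had under 3 UMIs. In addition Spp1 plus Fabp5 had to stay under 10 UMIs per 10000, and H2-Aa, H2-Ab1 and H2-Eb1 had to make up at least 1% of the gene UMIs of the cell. Of 8074 deposited barcodes, 6281 passed the limits on quality and hashtag, and 530 of those met the rule. The C1q limit left 2273 cells, the Ccr2 limit 1269, the Fcgr4 limit 1093, the cell cycle limit 1007 and the Spp1 plus Fabp5 limit 748. The last limit parted the 530 cells from 218 cells with less MHC class II RNA, called MHC-II-low here. The cells were thus chosen by the measured UMIs of the genes named in the rule, and their values are given below as a description and support nothing.

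C1q is the recognition unit of the classical complement pathway. Outside the blood it is made largely by macrophages, and it coats dying cells and immune complexes so that phagocytes take them up. MHC class II molecules are pairs of an alpha and a beta chain that show peptides from engulfed material to CD4 T cells. Cd74, the invariant chain, blocks their groove during assembly, cathepsins cut it away in endosomes, and H2-DM exchanges its last fragment for a peptide. Ciita is the coactivator that switches these genes on, through factors bound to short promoter elements called the X and Y boxes. In the ovary, macrophages lie around follicles and corpora lutea and clear the cells that die when these regress.

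All cells came from ovaries of virgin wild-type C57BL/6J mice, and the groups were 2 ages labelled 3 months and 15 months, with 3 hashtag pools of each. Per the labels the mice were harvested at 2 to 3 and at 14 to 17 months. The pools of an age carried barcoded antibodies, were joined before 1 sort on CD45 and CD11b and went into 1 Chromium 3' library, so age and library cannot be told apart. The protocol names 6 young mice, 2 to a pool, and 5 old mice with 1 pool from a single mouse, without saying which, while the series text gives 2 mice for every pool. The same enzymatic digestion with collagenase was used at both ages. The series title asks what aging changes in ovarian macrophages, and p-values here measure the spread between pools inside the libraries.

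The pools held 70, 45 and 101 of these cells at 3 months and 75, 187 and 52 at 15 months, with 257965 to 790377 gene UMIs per pool at 3 months and 515299 to 1982886 at 15 months. The median depth was 6862.5 UMIs per cell at 3 months and 9284.5 at 15 months. The MHC-II-low cells were deeper, with medians of 9486 and 11579.5 UMIs (n = 98 and 120 cells). The libraries shared 3 barcodes, none of them among the 530 cells.

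Within the 530 cells MHC class II RNA varied widely. It made up between 1.01% and 8.15% of the UMIs of a cell, with a median of 2.71% and quartiles of 1.91% and 3.65%. The medians of the pools were 2.87%, 2.91% and 2.52% at 3 months and 3.02%, 2.64% and 2.29% at 15 months. The histogram of this share over both classes had no empty bin around the limit: 16 cells lay just inside it (1.01% to 1.09%) and 12 just outside (0.910% to 0.982%). At the C1q limit, 7 cells lay just inside (20 to 24 UMIs) and 16 just outside (15 to 19 UMIs). The median cell had 134 C1q UMIs, with a range of 20 to 463. Cell numbers dropped towards the limit from below, and the bins between 1% and 3% varied up and down. In bins of 0.25 points, the 3-month cells numbered 47, 24, 16 and 11 below the limit. From 1% to 3% they numbered 19, 14, 11, 18, 17, 11, 20 and 19. The 15-month cells numbered 57, 26, 19 and 18 below the limit. From 1% to 3% they numbered 18, 23, 26, 24, 23, 30, 21 and 24. The classes are thus ranges of 1 measure, with cells on both sides close to the cut.

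**Figure D1:**
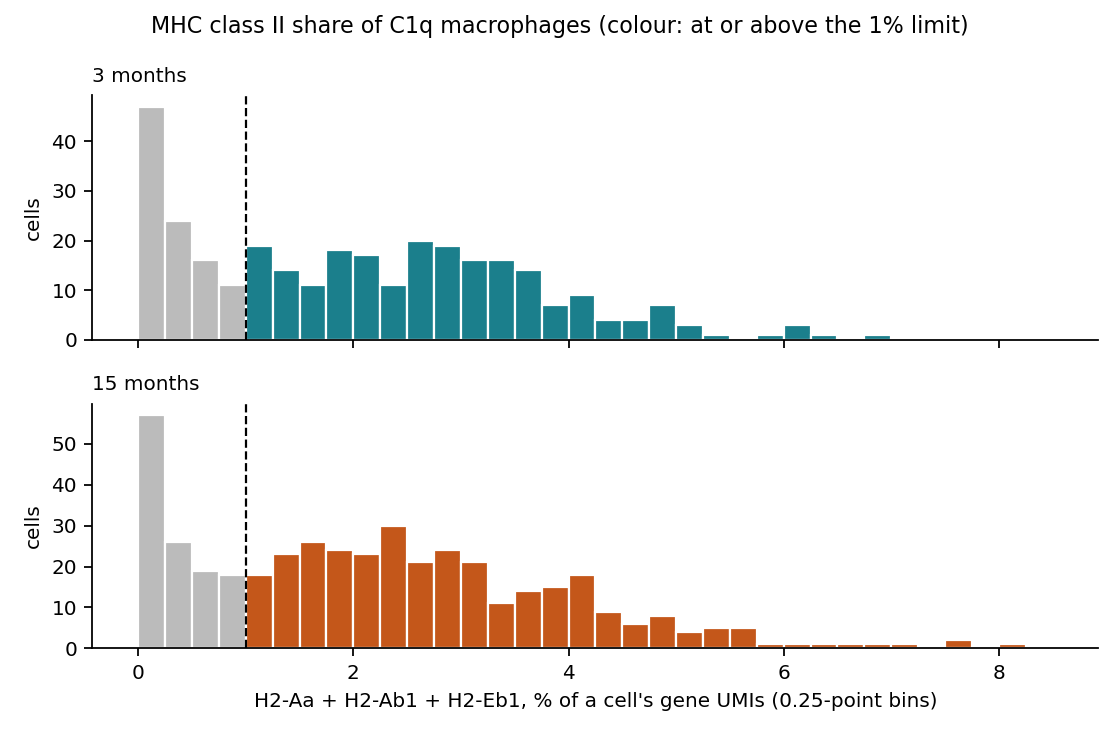
Distribution of the MHC class II share (H2-Aa, H2-Ab1 and H2-Eb1 as a percentage of the gene UMIs of a cell, x axis, bins of 0.25 points) in C1q macrophages of each age, with cells per bin on the y axis. Grey bars are MHC-II-low cells below the 1% limit and coloured bars the MHC-II-high cells, whose pool medians lay between 2.29% and 3.02%.

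The class II genes that defined the cells were checked pool by pool. H2-Aa, the alpha chain of the I-A molecule, measured 11017, 10104 and 9741 CPM in the 3-month pools and 10641, 9148 and 9509.6 CPM in the 15-month pools. CPM here are UMI counts scaled to a common library total with TMM factors in edgeR, computed on the summed counts of a pool. H2-Ab1, the beta chain of I-A, ranged over 8496 to 11043 CPM and H2-Eb1, the beta chain of I-E, over 8116 to 10867 CPM. The pools of the 2 ages overlapped for each of these genes. C1qa measured 7706, 6621 and 7153 CPM in the 3-month pools and 7029, 6112 and 5769.9 CPM in the 15-month pools, again with overlap.

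The label was checked against markers. The macrophage markers Adgre1, Csf1r, Cd68, Mertk, Fcgr1, Mrc1 and Apoe were present in every pool. Over the 530 cells Adgre1, which encodes F4/80, stood at 344 CPM, the growth factor receptor gene Csf1r at 666 CPM and Apoe at 32403 CPM. Selenop, the plasma selenoprotein that was given as a marker and was not used in the rule, stood at 1758 CPM over the 530 cells and 1348 CPM in MHC-II-low cells. The genes of the sort were present too: Ptprc, which encodes CD45, averaged 547 ± 98.2 and 597 ± 49.7 CPM at 3 and 15 months, and Itgam, which encodes CD11b, averaged 119 ± 38.3 and 81.7 ± 5.94 CPM (SD, n = 3 pools each). Some dendritic cell markers were near 0: Xcr1 and Clec9a stood at 0.859 and 1.29 CPM, Flt3 and Zbtb46 at 0.430 and 1.07 CPM. Others of the type 2 dendritic cell list were not, with Sirpa at 243, Clec10a at 84.4, Itgax at 31.4 and Cd209a at 11.2 CPM. In MHC-II-low cells these 4 stood at 175, 77.2, 19.4 and 2.61 CPM. A Cd209a UMI was found in 2.31% of MHC-II-high cells at 3 months and 0.955% at 15 months. Most of the summed type 1 dendritic cell list (275 to 536 CPM over pools) came from Irf8 and Cadm1, which macrophages share. The neutrophil gene Ly6g had no UMI.

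RNA of other ovarian cells was present, and more of it, summed over all cells, in the MHC-II-low class. The summed level of 7 theca or luteal markers ran from 45.2 to 161 CPM over the pools of MHC-II-high cells and from 28.7 to 2296 CPM in MHC-II-low cells. For 7 stroma markers the ranges were 23.4 to 854 and 309 to 2942 CPM, for 6 endothelial markers 8.57 to 120.2 and 44.8 to 370.2 CPM. For 7 granulosa markers they were 0 to 124 and 8.74 to 499 CPM, with Amh, Cyp19a1 and Fst at 0 in MHC-II-high cells. Erythroid RNA, mostly haemoglobin, ran at 3 months from 628 to 12528 CPM in MHC-II-high cells, against 25.2 to 38.8 CPM at 15 months. B cell markers summed to 148 to 279 CPM at 3 months and 326 to 462 CPM at 15 months. In 1 pool, the 3-month pool 1, neutrophil markers reached 1376 CPM and mature dendritic cell markers 297 CPM, nearly all from 2 cells in the case of S100a9. Cells with clear lineage markers of another type (at least 3 UMIs of defining lymphocyte genes, at least 5 of stromal, endothelial or steroidogenic genes, or over 1% haemoglobin) numbered 45 of 530 MHC-II-high and 50 of 218 MHC-II-low cells. Results against MHC-II-low cells are therefore given with and without these cells, an alternative chosen after the values had been seen. Each gene called by age and named below was also called without them, except Igkc and Ccl5, which were then too low to be tested.

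Class II genes are known to share promoter elements, and the sequences of 3 of them are shown because these genes were high together in the cells: H2-Aa and H2-Eb1, which were used in the rule, and H2-DMb1, which was not. They are the 250 bases before the start site in RefSeq (build GRCm38.p6). They run 5′ to 3′ along the strand of the gene, and capitals mark matches to the Y box letters TGATTGG and the X box letters AACNGATG, searched on both strands. H2-Aa lies at chr17:34287824-34288073 (minus strand), H2-Eb1 at chr17:34305617-34305866 (plus strand) and H2-DMb1 at chr17:34152941-34153190 (plus strand).
H2-Aa: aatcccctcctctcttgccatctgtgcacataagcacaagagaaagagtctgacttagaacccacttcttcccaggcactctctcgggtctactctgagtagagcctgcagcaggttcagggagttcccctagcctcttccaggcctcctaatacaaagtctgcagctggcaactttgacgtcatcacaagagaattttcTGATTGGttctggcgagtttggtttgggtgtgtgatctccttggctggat
H2-Eb1: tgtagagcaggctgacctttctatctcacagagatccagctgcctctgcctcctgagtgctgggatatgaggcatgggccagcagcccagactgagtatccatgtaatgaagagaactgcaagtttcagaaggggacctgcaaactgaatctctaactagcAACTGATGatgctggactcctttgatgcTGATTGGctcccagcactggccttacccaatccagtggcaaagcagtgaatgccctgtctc
H2-DMb1: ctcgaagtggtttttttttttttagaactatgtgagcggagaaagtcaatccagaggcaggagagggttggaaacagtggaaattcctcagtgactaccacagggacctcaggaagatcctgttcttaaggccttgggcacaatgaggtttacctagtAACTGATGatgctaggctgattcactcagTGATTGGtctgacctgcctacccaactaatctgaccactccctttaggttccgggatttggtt
In H2-Eb1 the X match began 89 bases and the Y match 61 bases before the start site, and in H2-DMb1 92 and 63 bases before it. H2-Aa had the Y match alone, 50 bases before its start. The pair of motifs was also found before H2-DMb2 (121 and 92 bases), while H2-Oa and H2-Ob had only the Y letters. Neither motif was in the windows of H2-DMa, C1qb, C1qc, Selenop, Il1b or Cebpb, and H2-Ab1, C1qa and Ciita are not analysed here. Of 32851 windows of this length, 7.23% held the Y letters, 1.98% the X letters and 0.146% both. The motifs do not overlap each other, and a match is a run of letters, not a measured binding site.

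MHC-II-high and MHC-II-low cells were compared within each of the 6 pools, which asks what else differs between C1q macrophages with much and with little class II RNA. Most of the class II pathway genes outside the rule that could be measured were higher in MHC-II-high cells. In edgeR's quasi-likelihood test with Benjamini-Hochberg adjustment, 433 of 5271 genes outside the rule were higher in MHC-II-high cells (8.21%) and 294 were lower (5.58%), 727 in all. Since both classes were cut on transcripts of the same cells, genes that vary with class II RNA were bound to differ, and the test reads only how evenly the pools show it. Without the cells that bear lineage markers, 84 of 4166 genes were higher (2.02%) and 79 lower (1.9%). Of the 727 genes called with all cells, 625 were measured without those cells, 614 kept their direction and 132 were called again. Leaving out the 3-month pool 3, with all other cells kept, gave 440 calls.

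Of 14 class II pathway genes outside the rule, 7 were measured, 6 of them were higher in MHC-II-high cells and none lower. Their median log2 difference was 1.68, beside -0.03 over all genes tested. Without the cells bearing lineage markers, 5 of 6 measured were higher. Cd74, the invariant chain, measured 21201, 18466 and 18304 CPM in the 3-month pools and 19380, 15494 and 16189 CPM in the 15-month pools of MHC-II-high cells. In MHC-II-low cells it measured 3656, 3184 and 3025 CPM in the 3-month pools and 1537, 2937 and 3385 CPM in the 15-month pools (log2 difference 2.65, SE 0.15, adjusted p = 1.96e-06). Every MHC-II-high pool lay far above every MHC-II-low pool. NK-gated cells, taken as a cell type that should lack Cd74, held 1528 CPM at 3 months and 1279 CPM at 15 months (195 and 202 cells, median 3093 and 4147 UMIs), from the 19.0% and 31.2% of them that had a Cd74 UMI. Of MHC-II-low cells 93.9% and 92.5% had one, and all of the MHC-II-high cells.

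The peptide exchange factor followed. H2-DMb1, its beta chain, measured 934, 691 and 628 CPM in the 3-month pools and 682, 673 and 708 CPM in the 15-month pools of MHC-II-high cells. In MHC-II-low cells it measured 217, 148 and 150.0 CPM in the 3-month pools and 109, 149 and 196 CPM in the 15-month pools (log2 difference 2.16, SE 0.11, adjusted p = 7.82e-07), and the classes did not overlap. Its reads can be split with the near-identical H2-DMb2, so its level is uncertain. H2-DMa, the alpha chain, stood at 617 to 762 CPM over the MHC-II-high pools and 139 to 281 CPM over the MHC-II-low pools (log2 difference 1.68, SE 0.14, adjusted p = 7.19e-05).

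Ciita, the coactivator itself, measured 94.1, 113 and 77.6 CPM in the 3-month pools and 135, 110.1 and 105 CPM in the 15-month pools of MHC-II-high cells. MHC-II-low cells held 38.4, 4.50 and 16.1 CPM in the 3-month pools and 29.8, 16.3 and 29.2 CPM in the 15-month pools (log2 difference 2.26, SE 0.25, adjusted p = 0.000355). Here too no pool of one class reached the other. Of the proteases that cut the invariant chain, Ctss (cathepsin S) was higher in MHC-II-high cells (log2 difference 1.02, adjusted p = 0.000350), and without the cells bearing lineage markers the difference was 0.57 (adjusted p = 0.0248). Lgmn, an endosomal protease, was higher as well (0.73, adjusted p = 0.00450), but not without those cells (0.31, adjusted p = 0.279). Rfxap, a subunit of the factor that binds the X box, did not pass the test (-0.31, adjusted p = 0.546). H2-Oa, H2-Ob, H2-Eb2, H2-DMb2, Rfx5, Rfxank and Ifi30 were too low to be tested.

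Genes for the signals that accompany antigen presentation moved the same way. In the list of co-stimulation and T cell ligands, 4 of 7 measured genes were higher and none lower (median 0.82), and 2 of 6 were higher without the cells bearing lineage markers. Cd83, a surface protein of antigen-presenting cells that keeps class II molecules at the membrane, measured 1344, 1608 and 1084 CPM in the 3-month pools and 1106, 704 and 762 CPM in the 15-month pools of MHC-II-high cells. Its MHC-II-low pools held 282 to 567 CPM (log2 difference 1.43, SE 0.11, adjusted p = 3.99e-05), all below the MHC-II-high pools. Cd86, a ligand of CD28 on T cells, was higher (1.33, adjusted p = 0.000403; without the cells bearing lineage markers 0.92, adjusted p = 0.0113). The checkpoint gene Vsir was higher with all cells only (0.82, adjusted p = 0.00310; 0.45, adjusted p = 0.146).

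Il1b, the precursor of the cytokine interleukin-1 beta, also differed widely. It measured 3041, 3270.2 and 2359 CPM in the 3-month pools and 1474, 1199 and 1202 CPM in the 15-month pools of MHC-II-high cells. In MHC-II-low cells it measured 758, 436 and 539 CPM in the 3-month pools and 470.4, 582 and 494 CPM in the 15-month pools (log2 difference 1.82, SE 0.20, adjusted p = 0.000350). The classes did not overlap, although the 3-month pools of MHC-II-high cells lay well above their 15-month pools. Of 15 inflammatory genes measured, 6 were higher and none lower (median 0.75), and 3 of 13 without the cells bearing lineage markers. They included Tlr2, a receptor for bacterial lipoproteins (1.41, adjusted p = 0.00611), and Bcl2a1b, a survival gene whose near-identical copies make its level uncertain (0.90, adjusted p = 0.000363).

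A list of homeostatic genes known from microglia and other resident macrophages was also counted. In it 7 of 10 measured genes were higher and none lower (median 1.04), and 3 of 10 were higher without the cells bearing lineage markers. Tgfbr1, a receptor chain for transforming growth factor beta, differed by 1.25 (adjusted p = 0.000127; 0.98, adjusted p = 0.00104 without those cells). P2ry6, a nucleotide receptor that serves phagocytosis, differed by 1.09 (adjusted p = 0.00317; 0.84, adjusted p = 0.0311). Cx3cr1, the fractalkine receptor, was named after its values had been seen and differed by 1.10 (adjusted p = 0.00388; 1.12, adjusted p = 0.0125). Core macrophage genes were higher in 10 of 16 cases with all cells (median 0.44) but in 1 of 16 without the cells bearing lineage markers, where 2 were lower. The gene that stayed higher was Aif1, an actin-binding protein of macrophages (1.13, adjusted p = 0.000260; 0.67, adjusted p = 0.0123). The 4 of 5 Fc gamma receptor genes that were higher with all cells, Fcer1g, Fcgr2b, Fcgr1 and Fcgr3, were not called without them.

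Other genes that were higher and kept their call without the cells bearing lineage markers were, by size, Plbd1, a phospholipase B-like protein of granules (2.09, adjusted p = 0.000127), Scimp, an adaptor of class II signalling (1.80, adjusted p = 0.00266), Arl5c, a small GTPase of the ARF family (1.69, adjusted p = 0.00179), the lectin Clec4b1 (1.52, adjusted p = 0.00150) and the proton-sensing receptor Gpr65 (1.46, adjusted p = 0.00284). Cxcl16, a chemokine that draws CXCR6-bearing T cells, was higher as well (1.34, adjusted p = 0.000778). So were the collagenase Mmp13 (2.33, adjusted p = 0.00187) and the growth factor Pdgfb (1.37, adjusted p = 0.00573). Mmp13 was higher in 5 of 6 pools and each of the others in 6 of 6.

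**Figure D2:**
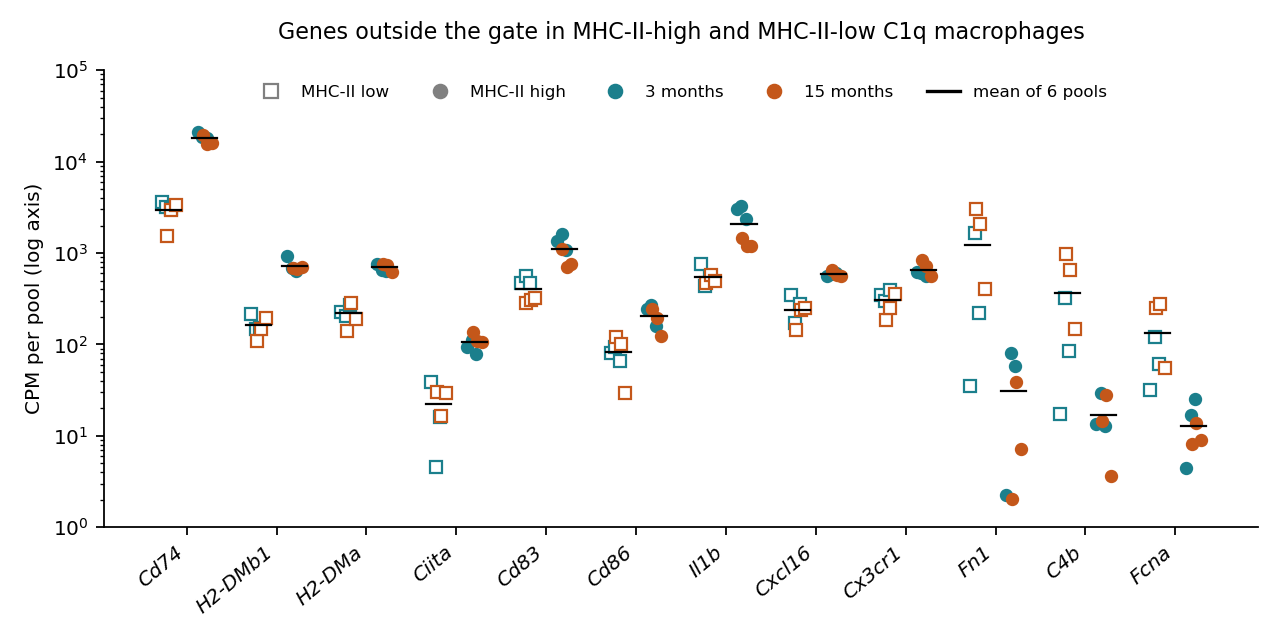
Level of 12 genes in MHC-II-low (open squares) and MHC-II-high (filled circles) C1q macrophages, as CPM per hashtag pool on a log axis, with teal for 3 months and orange for 15 months and a line at the mean of 6 pools. Class II pathway genes, Cd83, Cd86, Il1b, Cxcl16 and Cx3cr1 lie higher in MHC-II-high pools, while Fn1, C4b and Fcna lie lower with wide spread.

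Some genes that were lower in MHC-II-high cells came from a list named after Lyve1 and Folr2 resident macrophages. Few MHC-II-low cells held Lyve1 itself, 5.10% and 3.33% of them at 3 and 15 months. In that list 5 of 12 measured genes were lower, Lyve1 and Folr2 not among them, and 2 were higher, Selenop and Mrc1 (median -0.73). Without the cells bearing lineage markers 6 of 12 were lower and none higher. Fcna, ficolin A, a lectin that starts the lectin pathway of complement, measured 4.48, 16.7 and 25.4 CPM in the 3-month pools and 8.19, 13.8 and 9.05 CPM in the 15-month pools of MHC-II-high cells. MHC-II-low cells held 31.4, 121 and 60.7 CPM in the 3-month pools and 252, 279.7 and 55.5 CPM in the 15-month pools (log2 difference -3.29, SE 0.42, adjusted p = 0.000895). The MHC-II-high pools stayed below the MHC-II-low pools throughout. Without the cells bearing lineage markers the difference in Fcna was -3.47 (adjusted p = 3.21e-05). Ltc4s, the leukotriene C4 synthase, was lower as well (-1.94, adjusted p = 0.00489; -2.56, adjusted p = 6.08e-05). Gas6, a bridge between dying cells and their receptors, was lower with all cells (-0.96, adjusted p = 0.00824) and not called without those cells (-0.32, adjusted p = 0.389). Selenop was higher with all cells (0.54, adjusted p = 0.0223), and that call was lost without the cells bearing lineage markers (0.19, adjusted p = 0.723) and without the 15-month pool 1 (0.47, adjusted p = 0.0550) or pool 3 (0.47, adjusted p = 0.0702).

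Fn1, the matrix protein fibronectin, which peritoneal-type macrophages and fibroblasts make, varied widely between pools. It measured 2.24, 79.6 and 57.9 CPM in the 3-month pools and 2.05, 38.3 and 7.24 CPM in the 15-month pools of MHC-II-high cells. MHC-II-low cells held 34.9, 1655 and 221 CPM in the 3-month pools and 3061, 2059.5 and 409 CPM in the 15-month pools (log2 difference -5.03, SE 0.68, adjusted p = 0.00124). It was lower in MHC-II-high cells in 6 of 6 pools, but the classes overlapped across pools. Complement outside C1q had 3 of 10 genes lower and 1 higher (median -0.62), and 3 of 9 lower without the cells bearing lineage markers. C4b, the fourth complement component, whose near-identical copy makes it uncertain, differed by -4.21 (adjusted p = 0.000350) and Cfp, properdin, by -1.10 (adjusted p = 0.0163); without the 15-month pool 1 properdin was not called (-0.87, adjusted p = 0.0563). Cxcl13, the B cell chemokine, was lower (-6.29, adjusted p = 0.000355; -6.62, adjusted p = 2.67e-05 without the cells bearing lineage markers). The fatty acid carrier Fabp4 (-3.32, adjusted p = 0.00829) and the secreted Ecm1 (-2.80, adjusted p = 0.00594) were also lower with and without those cells.

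Other large falls could not be checked this way, because the genes were too low to be measured once the cells bearing lineage markers were left out. They were Ptgis, prostacyclin synthase (-5.06), Clu, clusterin (-4.02), Gstm2 (-3.27), Ldhb (-2.38), Nedd4 (-2.29) and Aebp1 (-2.25), with adjusted p between 2.35e-05 and 0.00526. The clearance, lysosome, lipid and iron lists had 3, 8, 4 and 5 genes higher and 1, 1, 2 and 0 lower with all cells, of 14, 20, 15 and 11 measured. Without the cells bearing lineage markers 1 clearance gene was higher and none of the other 3 lists had any, while 1, 2, 2 and 0 were lower.

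**Figure D3:**
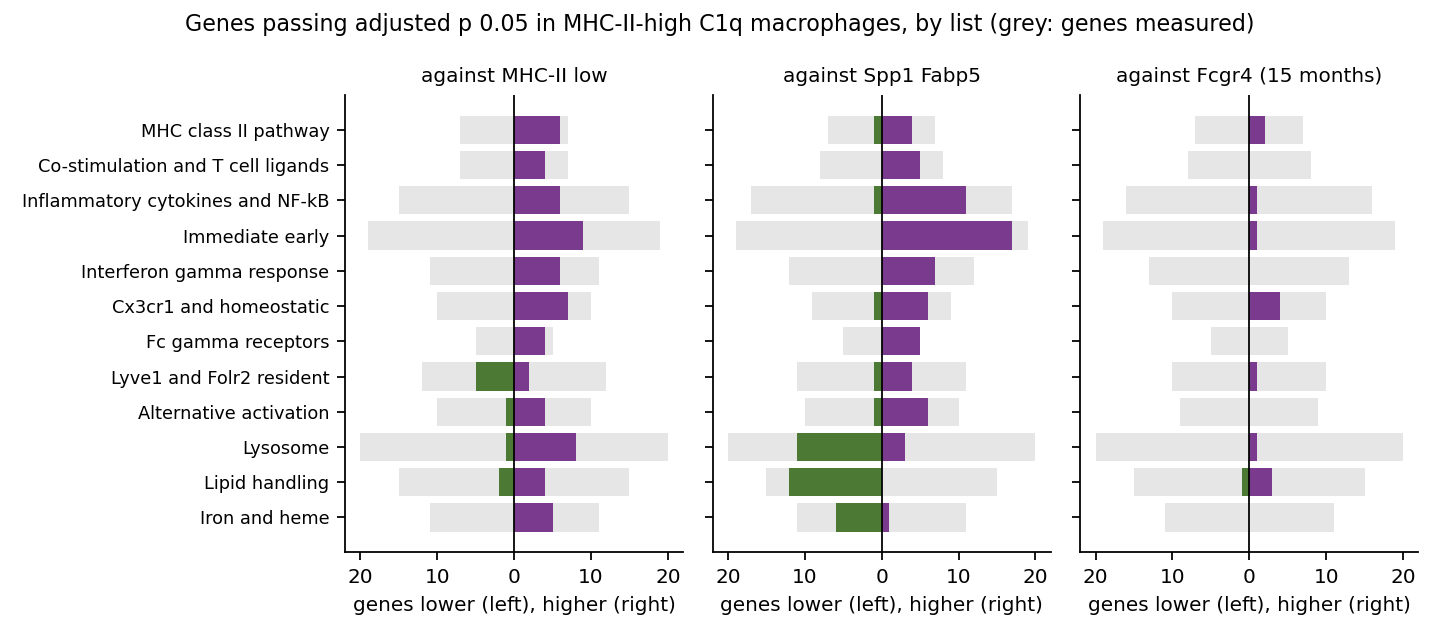
Genes called higher (right, purple) and lower (left, green) in MHC-II-high C1q macrophages in 12 gene lists, against MHC-II-low cells, the Spp1 Fabp5 class and the Fcgr4 class, with gene counts on the x axis and grey bars, drawn to both sides, for the number of genes measured. The class II pathway list has 6 of 7, 4 of 7 and 2 of 7 genes higher in the 3 comparisons.

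Because the share took all values across the limit, C1q macrophages of both classes were also laid out in 7 bins of the share (0 to 0.25%, to 0.5%, to 1%, to 2%, to 3%, to 4% and above), holding 104, 50, 64, 153, 165, 114 and 98 cells. These are pooled levels over cells of all pools, a description with no test, in CPM of all UMIs of a bin. Cd74 read 975, 3153, 5542, 9845, 15231, 19655 and 27783 CPM from the lowest to the highest bin. H2-DMb1 read 87.2, 146, 264, 426, 679, 844 and 849.6 CPM and levelled off at the top. Ciita read 8.47, 16.5, 43.3, 69.1, 109.8, 117 and 112 CPM and was flat above 2%. Il1b read 352, 597, 756, 1089, 1714, 1622 and 2544 CPM, and Cd83 302, 335, 503, 715, 829, 947 and 1224 CPM. Cx3cr1 read 218, 318, 378, 524, 603, 752 and 714 CPM, with its top in the sixth bin.

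Genes with the opposite order had their highest level in the cells of least class II RNA. Fn1 read 2308, 644, 141, 54.5, 28.9, 5.70 and 3.11 CPM and Fcna 293, 44.5, 33.6, 27.9, 6.42, 4.56 and 1.55 CPM. Timd4, a receptor for phosphatidylserine on resident macrophages, read 120.2, 33.1, 4.20, 0.634, 0.642, 0 and 0 CPM, and Lyve1, the hyaluronan receptor, 33.0, 1.27, 4.20, 5.07, 0.642, 0 and 0 CPM. Folr2, folate receptor beta, went from 108 CPM to 9.32 CPM. Each of these 5 genes stood highest in the lowest bin. Mrc1, the mannose receptor, and Selenop had no such order, with 423, 251, 383, 442, 486, 477 and 311 CPM and 1684, 919, 1267, 1943, 1793, 1657 and 1361 CPM.

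**Figure D4:**
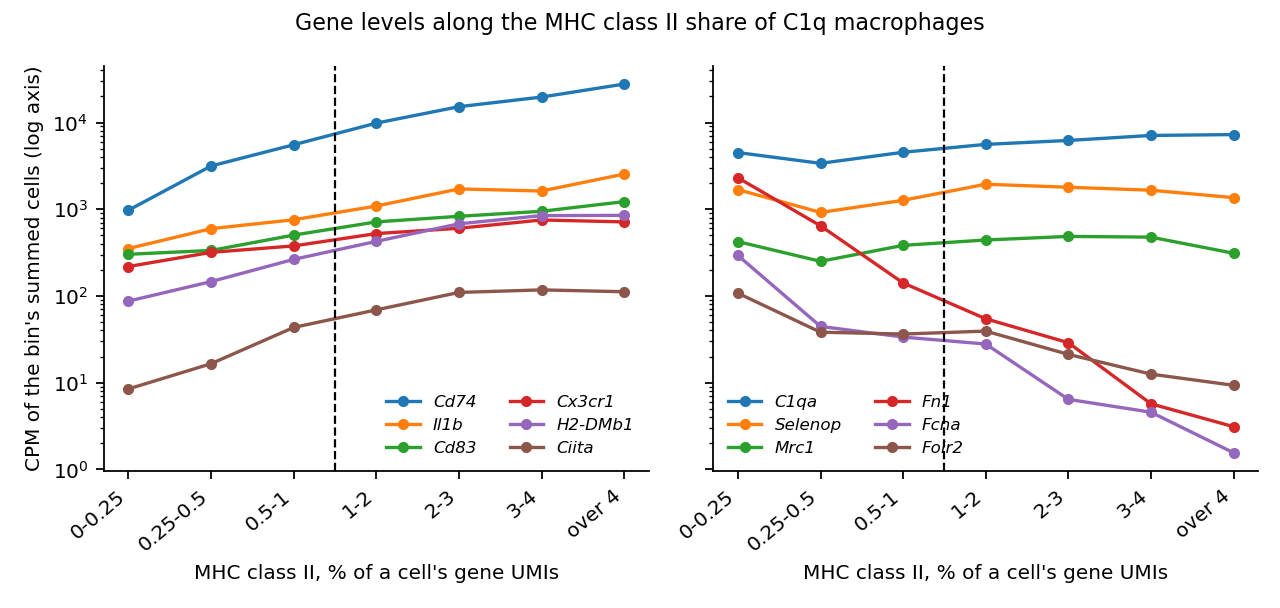
Pooled CPM (log axis) of 12 genes in C1q macrophages against 7 bins of the MHC class II share, with the dashed line at the 1% limit. Class II pathway genes, Il1b, Cd83 and Cx3cr1 climb from left to right, Fn1 and Fcna go down across the bins, and Mrc1 and Selenop show no order.

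Against C1q macrophages with high Spp1 and Fabp5 (259 cells, median 14048 UMIs, all 6 pools), MHC-II-high cells had more antigen presentation RNA and less lipid handling RNA. In edgeR 816 of 5151 genes were higher in MHC-II-high cells (15.8%) and 695 lower (13.5%). Both classes were again cut on RNA of the same cells, and the Spp1 Fabp5 class had no limit on its class II share. Genes that vary with class II RNA, or with Spp1 and Fabp5, were thus bound to differ. The test reads only how evenly the pools show it. Of 15 lipid handling genes measured, 12 were lower in MHC-II-high cells and none higher (median -1.35, over all genes 0.00166). Gpnmb, a membrane glycoprotein of lipid-laden macrophages, measured 4.44, 4.13 and 26.3 CPM in the 3-month pools and 36.3, 15.1 and 28.4 CPM in the 15-month pools of MHC-II-high cells. In the Spp1 Fabp5 class it measured 643, 842 and 662 CPM in the 3-month pools and 1875, 1323 and 1003 CPM in the 15-month pools (log2 difference -5.76, SE 0.26, adjusted p = 1.84e-07). The classes lay far apart in each pool. The proton pump subunit Atp6v0d2 (-4.75, adjusted p = 2.34e-06), Fabp4 (-4.60, adjusted p = 0.000129), Syngr1 (-3.76, adjusted p = 1.42e-05) and the cytokine receptor Il7r (-3.22, adjusted p = 0.000523) were lower too. Trem2, the lipid receptor of macrophages (-1.30, adjusted p = 0.00112), the lipase Lpl (-1.48, adjusted p = 0.00176) and the tetraspanin Cd9 (-2.08, adjusted p = 6.41e-05), named after their values were seen, were lower. Of 20 lysosome genes, 11 were lower and 3 higher.

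On the other side, 4 of 7 class II pathway genes were higher and 1 lower (median 1.48), with Cd74 at 1.73, adjusted p = 5.28e-05 and Ciita at 1.88, adjusted p = 0.000332. The lower one was Lgmn (-0.35, adjusted p = 0.0293), a call lost without the 3-month pool 1 (-0.34, adjusted p = 0.0545), pool 2 (-0.27, adjusted p = 0.0900) or the 15-month pool 3 (-0.34, adjusted p = 0.0659). Il1b measured 3012, 3222 and 2313 CPM in the 3-month pools and 1454, 1177 and 1179 CPM in the 15-month pools of MHC-II-high cells. The Spp1 Fabp5 class held 138, 373 and 454 CPM in the 3-month pools and 95.8, 362 and 58.2 CPM in the 15-month pools (log2 difference 3.21, SE 0.33, adjusted p = 5.93e-05). It was higher in MHC-II-high cells in every pool. The inhibitor gene Nfkbiz (3.01, adjusted p = 0.000105), the receptor Lilra5 (3.29, adjusted p = 7.28e-05), and, named after their values were seen, Cx3cr1 (2.18, adjusted p = 6.40e-05), Cd86 (1.62, adjusted p = 0.000374) and Mrc1 (1.46, adjusted p = 0.00612) were higher. Hba-a1 and Hba-a2 were called higher (4.06 and 3.53), and neither was called without cells over 1% haemoglobin (0.74, adjusted p = 0.0549, and 0.57, adjusted p = 0.0584).

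C1q macrophages with high Fcgr4 were nearly absent at 3 months (2, 1 and 3 cells), so that comparison used the 3 pools of 15 months with 17, 17 and 101 such cells. In edgeR 33 of 5643 genes were higher in MHC-II-high cells (0.585%) and 48 lower (0.851%). These 81 calls became 140, 212 and 45 when the 15-month pools 1, 2 and 3 were left out in turn. Trem2 measured 438, 719 and 1062 CPM in the 15-month pools of MHC-II-high cells and 82.5, 234 and 207 CPM in the 15-month pools of the Fcgr4 class (log2 difference 2.10, SE 0.25, adjusted p = 0.00421). The classes did not overlap. With Olfml3 (1.98, adjusted p = 0.0118) and Tmem119 (4.08, adjusted p = 0.0354) it was among the 4 of 10 homeostatic genes that were higher (median 1.58, over all genes 0.00188), the 3 named here after their values were seen. Cd74 was higher (1.75, adjusted p = 0.00324), as was H2-DMb1 (1.33, adjusted p = 0.0191), 2 of 7 measured in the class II pathway. The Fcgr4 class had no limit on its class II share, while MHC-II-high cells did. Genes that vary with class II RNA can therefore differ through the cut alone, and these 2 calls support nothing further. Named by size, the membrane protein Pmepa1 (3.19, adjusted p = 0.00731), the chemokine Ccl12 (2.82, adjusted p = 0.0292), the growth factor Igf1 (2.78, adjusted p = 0.0119), the scavenger receptor Cd36 (2.25, adjusted p = 0.00693) and Gdf15 (2.15, adjusted p = 0.0440) were higher.

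Lower in MHC-II-high cells than in the Fcgr4 class were the endothelial lipase gene Lipg (-7.46, adjusted p = 0.000175), the immunoglobulin gene Ighg2b (-6.92, adjusted p = 0.000313), Cxcl13 (-5.78, adjusted p = 3.17e-05), the cell cycle inhibitor Cdkn2a (-4.43, adjusted p = 0.000647) and the receptor Cd300e (-4.39, adjusted p = 0.000170). The calls for Gdf15 (2.26, adjusted p = 0.164), Ccl12 (2.16, adjusted p = 0.155), Igf1 (2.55, adjusted p = 0.0846), H2-DMb1 (1.15, adjusted p = 0.132), Olfml3 (2.09, adjusted p = 0.0768) and Tmem119 (2.97, adjusted p = 0.174) were lost without the 15-month pool 3, which held 101 of the 135 Fcgr4 cells. The difference in Tmem119 was 7.01 without the 15-month pool 2.

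The first question on age was whether the MHC-II-high share differed. Of MHC-II-high plus MHC-II-low cells, the MHC-II-high cells made up 72.9% (63.3% to 80.8%), 64.3% (52.6% to 74.5%) and 68.2% (60.4% to 75.2%) in the 3-month pools (Wilson 95% intervals, which cover counting error only). In the 15-month pools they made up 72.1% (62.8% to 79.8%), 74.8% (69.1% to 79.8%) and 65% (54.1% to 74.5%). The ages overlapped, with means of 68.5 ± 4.32% and 70.6 ± 5.06% (SD, n = 3 pools each, two-sided exact permutation p = 0.7). The smallest p that 3 against 3 pools allow is 0.1. The difference of 2.16 points was smaller than the SD of either age.

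Of all kept cells, MHC-II-high C1q macrophages were 9.66% (7.71% to 12%), 9.39% (7.10% to 12.3%) and 10.3% (8.58% to 12.4%) at 3 months and 9.78% (7.87% to 12.1%), 7.67% (6.68% to 8.80%) and 5.80% (4.45% to 7.53%) at 15 months. The means were 9.80 ± 0.487% and 7.75 ± 1.99% (exact permutation p = 0.3), with 1 of the 15-month pools inside the 3-month range. This share depends on the other cells of the sort, and limits were set on raw UMIs. With cells thinned to 4000 UMIs and shallower ones left out, the same limits chose a different set of cells. The means were then 14.6 ± 5.08% and 14.2 ± 0.514%, a difference of -0.360 points (exact permutation p = 1). The part of depth in the difference without thinning was not tested.

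Gene levels in MHC-II-high cells were then compared between ages, 15 months over 3 months, on the 6 pool sums. In edgeR 6 of 5444 genes outside the rule rose (0.11%) and 10 fell (0.184%), and 565 of all 5454 genes had an unadjusted p under 0.05. These 16 calls became 27 without the 3-month pool 2, 26 without the 15-month pool 1 and 10 without the 15-month pool 3. Of the 5444 genes, 915 had pools that did not overlap between ages (16.8%), among them each of the genes named as called below. Apart from the haemoglobin genes, and among genes spread over many cells, Il1b, Cebpb, Cdkn1a, Ifitm3 and Dusp2 fell. In the same set Lpl, Cd9, Itgav and a pair of transcripts overlapping ribosomal RNA repeats rose.

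Il1b measured 2942, 3123 and 2266 CPM in the 3-month pools and 1413, 1148 and 1152 CPM in the 15-month pools (means 2777 ± 452 and 1238 ± 152 CPM, SD, n = 3). All 15-month pools lay below all 3-month pools (log2 difference -1.16, SE 0.14, adjusted p = 0.00316, edgeR). The fall was called without each pool in turn and under each other setting tried. After thinning to 4000 UMIs, 68.0% of 169 cells at 3 months and 53.8% of 277 cells at 15 months had an Il1b UMI (47 and 37 shallower cells left out; unthinned 64.4% and 56.7%). NK-gated cells, which should lack Il1b, had 9.80% and 8.18% after thinning. Cebpb, a transcription factor of myeloid activation, measured 1342, 1248 and 1116 CPM in the 3-month pools and 634, 654 and 590.0 CPM in the 15-month pools. Its 15-month pools all lay below its 3-month pools (log2 difference -0.98, SE 0.13, adjusted p = 0.00356). It was called without each pool in turn, but not when all cells with any markers of other types were left out (-0.84, adjusted p = 0.0672), a stricter filter that removed 286 of the 530 cells. Over all cells without TMM scaling, Cebpb stood at 1124 and 629 CPM in MHC-II-high cells, 809.5 and 792 CPM in MHC-II-low cells and 598 and 268 CPM in NK-gated cells at 3 and 15 months. It was thus lower at 15 months in the NK-gated cells too, and the part of this shift in the result was not tested.

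The other falls were less firm. Cdkn1a, the p21 inhibitor of the cell cycle and a p53 target, measured 392, 396 and 429.8 CPM in the 3-month pools and 188, 219 and 132 CPM in the 15-month pools (log2 difference -1.16, SE 0.19, adjusted p = 0.0139). Its call was lost without the 3-month pool 1 (-1.18, adjusted p = 0.0634), the 3-month pool 3 (-1.11, adjusted p = 0.112) or the 15-month pool 3 (-0.98, adjusted p = 0.0542). It was also lost at a class II limit of 0.5%, without cells with markers of other types and without the top 10% of scrublet scores (differences of -1.14 to -0.84, adjusted p from 0.0575 to 0.316). Ifitm3, an interferon-induced membrane protein, measured 1331, 1152 and 1342 CPM in the 3-month pools and 638, 825 and 477 CPM in the 15-month pools (log2 difference -0.97, SE 0.18, adjusted p = 0.0383). Its call was lost without the 3-month pool 1 (-0.94, adjusted p = 0.197), the 3-month pool 3 (-0.93, adjusted p = 0.197), the 15-month pool 1 (-0.95, adjusted p = 0.0820) or the 15-month pool 3 (-0.80, adjusted p = 0.125). It was also lost among genes of at least 50 CPM, at a class II limit of 0.5%, with the C1q limit per 10000 UMIs, at 5% mitochondrial UMIs and without cells with markers of other types (differences of -1.04 to -0.86, adjusted p from 0.0527 to 0.198). Dusp2, a phosphatase that restrains MAP kinases, measured 408, 399.8 and 313 CPM in the 3-month pools and 226, 129 and 118 CPM in the 15-month pools (log2 difference -1.26, SE 0.23, adjusted p = 0.0365). Its call was lost without the 3-month pool 1 (-1.18, adjusted p = 0.197), the 3-month pool 2 (-1.22, adjusted p = 0.0686), the 3-month pool 3 (-1.38, adjusted p = 0.0860), the 15-month pool 2 (-1.12, adjusted p = 0.181) or the 15-month pool 3 (-1.11, adjusted p = 0.173). It was also lost among genes of at least 50 CPM, at a class II limit of 0.5%, at one of 2%, with the C1q limit per 10000 UMIs, at 5% mitochondrial UMIs and without cells with markers of other types (differences of -1.31 to -0.89, adjusted p from 0.0530 to 0.249). The pools of the ages did not overlap for any of the 3 genes. Over all cells without TMM scaling, NK-gated cells at 3 and 15 months held 187 and 131 CPM of Cdkn1a. They held 396 and 347 CPM of Ifitm3 and 763 and 618 CPM of Dusp2. MHC-II-low cells held 308 and 263, 1133 and 1547, and 76.9 and 119 CPM of these genes. All 3 were thus lower at 15 months in NK-gated cells too, but only Cdkn1a in MHC-II-low cells, and the part of these shifts in the results was not tested.

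Lpl, the lipase that frees fatty acids from lipoproteins, measured 62.9, 152 and 71.9 CPM in the 3-month pools and 236, 467 and 444 CPM in the 15-month pools. All 15-month pools lay above all 3-month pools (log2 difference 2.13, SE 0.32, adjusted p = 0.00786). The share of thinned cells with an Lpl UMI was 16.6% at 3 months and 51.6% at 15 months (unthinned 22.2% and 65.0%), beside 3.92% and 0.909% of NK-gated cells. Its call was lost without the 3-month pool 1 (1.91, adjusted p = 0.0634) or the 3-month pool 3 (1.93, adjusted p = 0.112).

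Cd9, a tetraspanin linked to lipid-laden macrophages, measured 88.9, 72.0 and 75.9 CPM in the 3-month pools and 159, 204 and 180.5 CPM in the 15-month pools (log2 difference 1.20, SE 0.19, adjusted p = 0.00978), again with no overlap. It lost its call without the 3-month pool 3 (1.16, adjusted p = 0.112), the 15-month pool 2 (1.09, adjusted p = 0.0942) or the 15-month pool 3 (1.21, adjusted p = 0.0542). After thinning 16.0% and 34.3% of cells had a Cd9 UMI at 3 and 15 months, below the 39.2% and 52.7% of NK-gated cells. Over all cells without TMM scaling, Cd9 stood at 73.7 and 189 CPM in MHC-II-high and 233 and 214 CPM in NK-gated cells. NK-gated cells thus cannot be taken as lacking Cd9, and for this gene they give no measure of RNA from other cells. Itgav, an integrin chain used in the uptake of dying cells, measured 28.2, 48.0 and 42.0 CPM in the 3-month pools and 80.5, 98.3 and 111 CPM in the 15-month pools (log2 difference 1.33, SE 0.24, adjusted p = 0.0348). It lost its call without the 3-month pool 1 (1.15, adjusted p = 0.197), the 3-month pool 3 (1.44, adjusted p = 0.151), the 15-month pool 2 (1.31, adjusted p = 0.138) or the 15-month pool 3 (1.24, adjusted p = 0.121). It was also lost at a class II limit of 0.5%, without cells with markers of other types and without the top 10% of scrublet scores (differences of 1.02 to 1.29, adjusted p from 0.0575 to 0.277). The pools of the ages were apart for each of these genes. Over all cells without TMM scaling, Itgav stood at 35.9 and 96.3 CPM in MHC-II-high cells at 3 and 15 months. It stood at 36.2 and 58.1 CPM in MHC-II-low and 32.9 and 57.6 CPM in NK-gated cells. Itgav was thus higher at 15 months in the NK-gated cells too, and the part of this shift in the result was not tested.

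Some called genes had most of their UMIs in a few cells. The haemoglobin genes Hbb-bs, Hba-a1, Hba-a2 and Hbb-bt fell, with log2 differences of -8.10, -8.22, -8.07 and -7.89, and 2 cells held 94.1% of the 9028 Hbb-bs UMIs at 3 months. An Hbb-bs UMI was nevertheless found in 87.0% of MHC-II-high cells at 3 months and 15.0% at 15 months. Of NK-gated cells 84.6% and 12.4% had one, so Hbb-bs was found less often at 15 months in them too. Without the cells bearing lineage markers Hbb-bs still differed by -4.55 (adjusted p = 3.72e-08), beside the erythroid RNA of the 3-month library described above. The chemokine gene Ccl5 measured 130.1, 24.0 and 279 CPM in the 3-month pools and 5.89, 13.7 and 0 CPM in the 15-month pools (log2 difference -4.11, SE 0.66, adjusted p = 0.0126). Of its 272 UMIs at 3 months, 2 cells held 63.2%, and its call was lost without the 3-month pool 3 (-3.21, adjusted p = 0.112) or the 15-month pool 3 (-3.75, adjusted p = 0.0542), and among genes of at least 50 CPM (-4.08, adjusted p = 0.0693). Igkc, an immunoglobulin light chain, measured 2.17, 4.00 and 0 CPM in the 3-month pools and 218, 64.7 and 59.0 CPM in the 15-month pools (log2 difference 6.09, SE 0.92, adjusted p = 0.00879), from 15 cells at 15 months, 2 of which held 66.9% of its 272 UMIs. It lost its call without the 3-month pool 3 (5.16, adjusted p = 0.112), and with the C1q limit set per 10000 UMIs (1.95, adjusted p = 0.495). The remaining rises were AY036118 (1.65, adjusted p = 0.00316) and Gm42418 (1.12, adjusted p = 0.00316, named after its values were seen), transcripts that overlap ribosomal RNA repeats. Over all cells without TMM scaling, Gm42418 stood at 3857 and 9258 CPM at 3 and 15 months in MHC-II-high, 3112 and 14503 CPM in MHC-II-low and 1649 and 9796 CPM in NK-gated cells. AY036118 stood at 120.5 and 439, 98.1 and 398 and 29.1 and 212 CPM in the same cells, so both were higher in the 15-month library in all 3 kinds of cell, and the part of this difference between the libraries in the age results was not tested.

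By list, none of 7 measured class II pathway genes was called by age, with a median of 0.04 beside -0.00596 over all genes. The rule held class II RNA at 1% or more at both ages, and Cd74 followed that share across cells. The comparison therefore cannot show whether the pathway changes with age in C1q macrophages as a whole. Cd74 had a log2 difference of -0.19 (SE 0.10, adjusted p = 0.537), Ciita of 0.33 (SE 0.20, adjusted p = 0.631) and Ctss of 0.25 (SE 0.15, adjusted p = 0.631). Selenop had 0.03 (SE 0.11, adjusted p = 0.978). The pools of the ages overlapped for Cd74, Ciita and Selenop and not for Ctss.

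In the lipid handling list 2 of 14 measured genes rose (Lpl, Cd9) and none fell, with a median of 0.65. In MHC-II-low cells, without TMM scaling, Lpl stood at 130 and 317 CPM and Cd9 at 151 and 393 CPM at 3 and 15 months. Spp1 plus Fabp5, limited by the rule, had a median of 0 per 10000 in each 3-month pool of MHC-II-high cells. In the 15-month pools the medians were 0, 1.03 and 1.34, and their part in the rises was not tested. In the clearance list 1 of 13 rose (Itgav, median 0.39), and in the lysosome list none of 20 was called (median 0.28). Of 17 inflammatory genes Il1b fell and none rose (median -0.45), and without the cells bearing lineage markers 3 of 16 fell, Il1b, Cd14 and Ier3 (-1.04, adjusted p = 0.0356, named after its values were seen). Cd14, the co-receptor for lipopolysaccharide, had -0.88 (adjusted p = 0.0887) and passed in 7 of 21 alternatives, among them the one without cells bearing lineage markers (-0.97, adjusted p = 0.0392). None of 10 type I interferon genes (median -0.48), none of 11 heat shock genes (median -0.60) and none of 19 immediate early genes (median -0.25) was called. Examples were Irf7 (-1.37, adjusted p = 0.0838), Isg15 (-1.58, adjusted p = 0.152) and Hspa8 (-0.55, adjusted p = 0.0887). Irf7 alone of the type I interferon genes was called without the cells bearing lineage markers (-1.35, adjusted p = 0.0392). Of the Cx3cr1 list (10 genes), the Fc gamma receptor list (5) and the MHC class I list (14) no gene was called either.

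**Figure D5:**
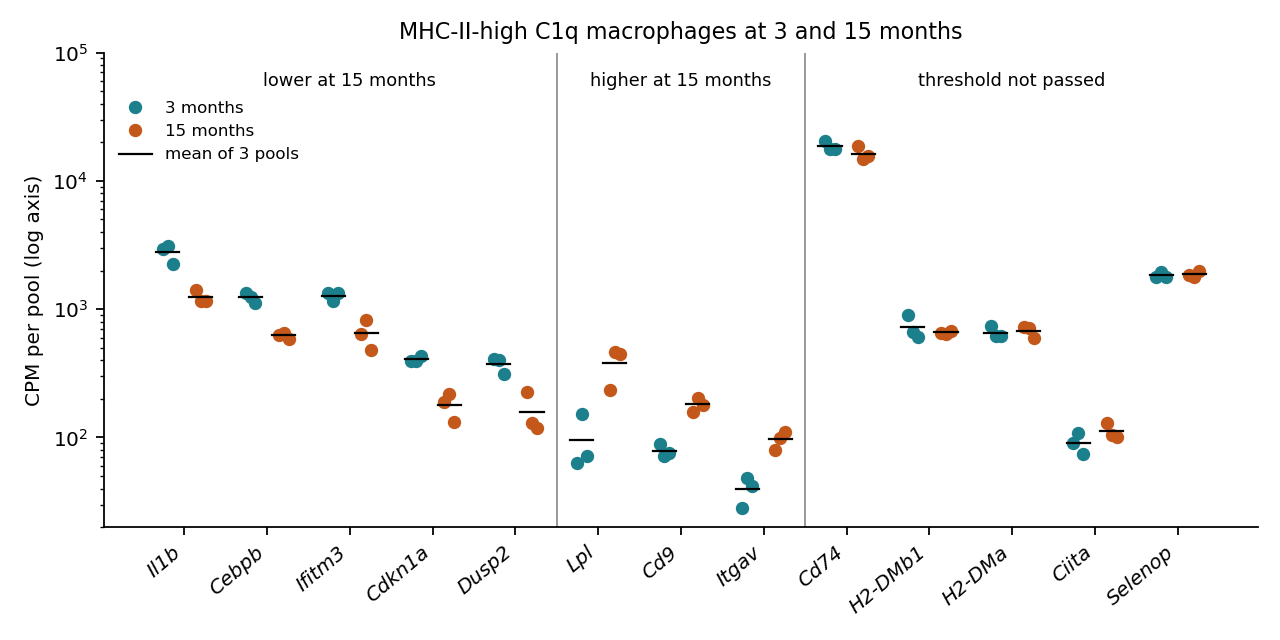
Level of 13 genes in MHC-II-high C1q macrophages as CPM per hashtag pool on a log axis, with teal for 3 months, orange for 15 months and a line at the mean of 3 pools. The 5 genes called lower and the 3 called higher at 15 months have no overlap between ages, whereas Cd74, H2-DMb1, H2-DMa, Ciita and Selenop did not pass the test.

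Whether age acted differently in MHC-II-high and MHC-II-low cells was tested as an interaction over the 12 sums. In edgeR 2 of 6350 genes had a higher age effect in MHC-II-high cells (0.0315%) and 2 a lower one (0.0315%), while 480 of all 6359 had an unadjusted p under 0.05. No gene was called without the 15-month pool 2, 1 without the 3-month pool 3, 6 without the 3-month pool 1, 12 without the 15-month pool 1 and 19 without the 3-month pool 2. None of the class II pathway genes was among the 4. Il1b had an interaction of -1.02 (SE 0.25, adjusted p = 0.292), so a difference between the classes in its change with age was not shown. Over all cells without TMM scaling it stood at 2441 and 1176 CPM in MHC-II-high cells at 3 and 15 months. In MHC-II-low cells it stood at 544 and 522 CPM, so a fall shared by both classes was not shown either. Of 17 inflammatory genes measured, 1 had a positive interaction and none was called (median -1.02, over all genes 0.000328).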

How the data were processed

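CD45+ CD11b+ ovarian cells were measured as 1 Chromium 3' library per age. What the authors deposited is a matrix per age of unnormalised UMI counts, with genes and hashtags as features. Cell Ranger 7.0.0, FastQC 0.11.4 and mm10 are named in the submitters' processing notes, while the matrix headers name Cell Ranger 4.0.0; which version made the counts is not given in the sources used here. Barcodes were kept with at least 500 genes, 1000 UMIs, at most 10% mitochondrial UMIs, and a top hashtag of at least 10 counts and 3 times the second. Scrublet called 1 of 8074 barcodes, which was not among the 6281 kept, and gave no usable measure of doublets. The hashtag limit left out 864 barcodes with 2 hashtags within 3 times of each other, and doublets within a pool remain.

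Counts were summed per pool and class (at least 10 cells) and tested in edgeR 4.0.16 (limma 3.58.1, R 4.3.3; filterByExpr, TMM, quasi-likelihood test, Benjamini-Hochberg at 0.05), with class comparisons blocked on pool and p-values adjusted over all genes tested. The fits were first tested on simulated data. Shares were tested by exact permutation over pools. DESeq2 1.42.0 was an alternative, besides other normalisation, filters, limits, thinning to 4000 UMIs, the replicate block and leaving out pools. Python 3.11.15 and scanpy 1.11.5 were used. Outside the rule genes and predicted models, the text names up to 10 genes each way by age and against MHC-II-low cells (called, at least 50 CPM, no overlap between ages or 1 direction in every pool), up to 5 in other comparisons, and 3 per list with the smallest p. A few genes are not reported here. Members and lists were chosen with earlier results of these data known.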

Additional observations from a re-analysis of the deposited data

Results flagged for a closer look

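Genes whose change with age differed between MHC-II-high and MHC-II-low cells, in edgeR's interaction test with Benjamini-Hochberg adjustment, numbered 4. All 4 calls were absent when the 15-month pool 2 was left out, and each was lost under other settings too.

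Cytip, a cytohesin-binding protein of leukocytes, measured 132, 129 and 151 CPM in the 3-month pools and 131, 69.6 and 73.8 CPM in the 15-month pools of MHC-II-high cells. MHC-II-low cells held 13.4, 25.9 and 24.1 CPM in the 3-month pools and 113, 62.2 and 65.0 CPM in the 15-month pools, where the ages did not overlap. The age effect in MHC-II-high minus that in MHC-II-low cells was -2.52 on the log2 scale (SE 0.31, adjusted p = 0.0155). The age effect itself was not called in either class (-0.67, adjusted p = 0.372 in MHC-II-high and 1.86, adjusted p = 0.115 in MHC-II-low cells). Without the cells bearing lineage markers the interaction was -1.78 (adjusted p = 0.283). The call was lost in 7 of 20 alternatives, over which the value ran from -1.64 to -2.91.

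Ccl5, a chemokine made mostly by T and NK cells, measured 134, 24.9 and 285 CPM in the 3-month pools and 6.06, 14.2 and 0 CPM in the 15-month pools of MHC-II-high cells and 13.4, 8.63 and 46.4 CPM in the 3-month pools and 6.47, 124 and 31.1 CPM in the 15-month pools of MHC-II-low cells. Its interaction was -5.71 (SE 0.61, adjusted p = 0.00736), and a few cells held most of its UMIs, as described in the report. The call was lost in 4 of 17 alternatives, over which the value ran from -1.71 to -6.03, the smallest at a class II limit of 2%.

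Hsd3b1, an enzyme of steroid synthesis in theca and luteal cells, had an interaction of 4.02 (SE 0.40, adjusted p = 0.00670). It measured 13.4, 29.0 and 15.2 CPM in the 3-month pools and 16.2, 68.0 and 7.20 CPM in the 15-month pools of MHC-II-high cells and 307, 470.5 and 191 CPM in the 3-month pools and 9.70, 79.1 and 2.83 CPM in the 15-month pools of MHC-II-low cells. Theca and luteal markers summed over the same MHC-II-low pools ranged from 779 to 2296 CPM at 3 months and 28.7 to 356 CPM at 15 months, and their part in this result was not tested. The call was lost in 5 of 18 alternatives, over which the value ran from 0.57 to 6.16, among them class II limits of 0.5% and 2%, no cells over 1% haemoglobin and no top scrublet scores. The smallest value was that at the 0.5% limit.

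Mmp12, macrophage elastase, named after its values were seen, had an interaction of 4.98 (SE 0.69, adjusted p = 0.0376; 6.56, adjusted p = 0.00466 without the cells bearing lineage markers). MHC-II-high cells held 22.3, 4.15 and 4.16 CPM in the 3-month pools and 36.4, 121 and 57.6 CPM in the 15-month pools, with no overlap between the ages, and MHC-II-low cells 83.5, 8.63 and 27.5 CPM in the 3-month pools and 0, 11.3 and 19.8 CPM in the 15-month pools. The call was lost in 6 of 19 alternatives, over which the value ran from 2.73 to 10.30, among them class II limits of 0.5% (adjusted p = 0.701) and 2% (adjusted p = 0.546), at 5% mitochondrial UMIs, and without the 3-month pool 1 or 3.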

How the results depend on the processing

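The limits come from the design: 1 library per age, 3 pools per age, and rules on counts. The cause of each shift below was not tested. By age, the 16 calls (6 higher, 10 lower) became 29 with DESeq2 (8 and 21), 176 with no low-count filter (84 and 92) and 10 without cells with markers of other types (4 and 6), with a range of 10 to 27 over the fits without 1 pool. Pool numbers did not pair the samples: same-numbered pools had correlations of 0.118, 0.0563 and 0.18 of their deviations from the age means. Every pool correlated best with its own number, a hint from the data and not the design, and the replicate block gave 34 calls (14 and 20). Against MHC-II-low cells, the 727 calls (433 and 294) became 402 (261 and 141) with DESeq2, 1658 with no filter, 413 at a class II limit of 0.5%, 414 with the C1q limit per 10000 UMIs, 347 at 5% mitochondrial UMIs, 90 without cells with markers of other types, 163 without those bearing lineage markers and 344 without the top 10% of scrublet scores, and 440 to 597 without 1 pool. Against the Spp1 Fabp5 class the 1511 calls stayed between 1017 and 1799 in each alternative run, and between 1035 and 1308 without 1 pool. Against the Fcgr4 class the 81 calls became 440 with no filter, 50 at a mean of 50 CPM and 134 at a class II limit of 2%, and 45 to 212 without 1 pool. The 4 interactions became 12 with DESeq2, 197 with no filter, 11 at a class II limit of 2%, 7 with the C1q limit per 10000, 15 with the top hashtag at 10 times the second and 14 without cells with markers of other types, and 0 to 19 without 1 pool. The difference in the MHC-II-high share of C1q macrophages, 2.16 points, turned to -1.69 without cells with markers of other types (exact permutation p = 0.7), -1.30 without those bearing lineage markers (p = 0.9, exact) and -0.935 after thinning (p = 0.9, exact), and ran from 0.0585 to 4.98 without 1 pool. The share of kept cells ran from -3.06 to -1.07 points without 1 pool. It reached the smallest possible exact permutation p of 0.1 at a class II limit of 0.5% (-2.34) and with the C1q limit per 10000 (-2.33). Signs turned for 5 genes. Selenop by age had -0.052 at a class II limit of 0.5%, -0.0327 at the stricter hashtag limit, -0.473 without cells with markers of other types, -0.0967 without the top scrublet scores and between -0.0145 (without the 15-month pool 3) and 0.0717 without 1 pool. Igf1 by age had -0.000312 and H2-DMb1 by age 0.0458 without cells with markers of other types. Without 1 pool H2-DMb1 ran from -0.253 to 0.0709 (without the 3-month pool 1), and H2-DMa by age from -0.00471 (without the 3-month pool 3; -0.00365 without the 15-month pool 1) to 0.14. Cyp11a1 against MHC-II-low cells had 0.403, 0.201 and 0.0503 without cells with markers of other types, without those bearing lineage markers and without the top scrublet scores. Over 3184 recomputed values of 165 pairs of a named gene and a comparison, 2889 kept direction and side of the threshold. Of the rest, 222 lost a call, 60 gained one and 13 changed sign. Scrublet called 1 of 8074 barcodes, and it was not among the 6281 kept. The setting without scrublet calls therefore held the same cells as the main one and could change nothing. Its values are among the 3184.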

Other observations

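Against C1q macrophages with high Spp1 and Fabp5, further lists differed, each again between classes cut on RNA of the same cells. The genes named here were chosen after their values were seen. Of 19 immediate early genes, 17 were higher in MHC-II-high cells and none lower (median 1.17, over all genes 0.00166, edgeR as in the report). Atf3, a stress-induced transcription factor, measured 2508, 2884 and 2446 CPM in the 3-month pools and 2563, 1810.4 and 2534 CPM in the 15-month pools of MHC-II-high cells and 1413, 1058 and 1403 CPM in the 3-month pools and 996, 886 and 859 CPM in the 15-month pools of the Spp1 Fabp5 class (log2 difference 1.17, SE 0.12, adjusted p = 6.41e-05). It was higher in each of the 6 pools. Egr1 (1.80, adjusted p = 0.000378), Klf2 (1.31, adjusted p = 0.000113) and Zfp36 (1.1, adjusted p = 0.000105), which encode transcription factors and an mRNA decay factor, were higher too, and all 4 genes kept their call without each pool in turn. By age none of these 19 genes was called in MHC-II-high cells.

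Of 12 interferon gamma response genes, 7 were higher and none lower (median 0.71), with the transcription factor Irf1 (2.08, adjusted p = 0.000691) among them. MHC class I genes had 6 of 13 higher (median 0.42), and all 5 Fc gamma receptor genes were higher (median 0.61). The call for one of them, Fcgr2b (0.74, adjusted p = 0.0168), was lost without the 3-month pool 1 (adjusted p = 0.0509), pool 2 (adjusted p = 0.0587) or pool 3 (adjusted p = 0.0616). Of 10 genes of alternative activation 6 were higher and 1 lower. They included the lectins Mgl2 (2.78, adjusted p = 6.41e-05) and Clec10a (1.36, adjusted p = 0.000756), and the lower one was the arginase Arg1 (-4.0, adjusted p = 0.00104). Of 11 iron and heme genes 6 were lower and 1 higher (median -0.61). The ferritin chains Ftl1 (-1.01, adjusted p = 8.63e-05) and Fth1 (-0.74, adjusted p = 0.00287) were lower in each of the 6 pools.

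Against MHC-II-low cells the same lists depended on the cells bearing lineage markers. With all cells 9 of 19 immediate early, 6 of 11 interferon gamma, 6 of 14 MHC class I and 7 of 14 myeloid transcription factor genes were higher. Without those cells 1 of 19 immediate early genes and none of the other 3 lists was called higher. The part of the RNA of other cells in this loss was not tested.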
